A study of Mus musculus with 18 samples.

Results

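The 8 genes described here, Cr2, Cd1d1, Cd9, Dtx1, Notch2, S1pr3, Fcer2a and Cd93, are widely used to tell marginal zone, follicular and immature B cells apart. They were taken by gene symbol and Entrez identifier from the count tables, which hold 28096 genes, and all 8 passed the expression filter that kept 14161 genes for testing. The tables come from RNASeq of B cells isolated from the spleens of C57BL/6 N mice at least 8 weeks old, either wild type (WT) or lacking Ubqln1, a ubiquitin-binding chaperone of the cytosol, in every cell (Ubqln1-/-, labelled Ubiquilin-1 KO). Cells of each genotype were cultured for 4 hr without stimulus (resting), with 10 μg/mL of anti-IgM F(ab)2, which crosslinks the B cell receptor, or with 20 μg/mL of LPS from K12 E. coli, which engages TLR4. Each of these 6 groups had 3 libraries, 18 in all. The knockout removes an exon from the germline, so it is neither confined to B cells nor induced. Culture wells were pooled before RNA was purified, and nothing in the labels ties a replicate to a mouse, so the p-values measure the spread between libraries.

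Between 15368941 and 41072854 reads were counted per library. Ubqln1 itself stood at 62.3 to 92.0 RPKM (read counts scaled to gene length and library size) in the 9 WT libraries and at 24.8 to 34.8 in the 9 Ubqln1-/- libraries, so every library matched the genotype in its label. The tables count whole genes, so the exons behind the reads that remain were not seen. The 8 B cell identity genes, Ms4a1, Cd79a, Pax5 and Ebf1 among them, summed to 2890.0 to 9056 CPM (counts scaled to library size alone) per library. The 7 T cell markers summed to 1.25 to 6.30, the 5 NK markers to 0.0895 to 0.511, the 7 neutrophil markers to 0.0666 to 1.09, the 6 platelet markers to 4.60 to 8.77, the 5 erythroid markers found to 0.249 to 4.56, the 8 macrophage and monocyte markers to 11.4 to 45.4 and the 6 dendritic cell markers to 14.1 to 73.0. Sums were higher for the 8 endothelial and stromal (30.7 to 268.8), 5 follicular dendritic (60.9 to 172.9) and 6 plasma cell markers (650.0 to 2498), lists that hold Pecam1, Fcgr2b and Irf4, which B cells express. Of each of these lists, 0 genes were at 0 in all 18 libraries.

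Marginal zone B cells sit at the border of the splenic white pulp, where blood-borne antigen arrives, and respond quickly without T cell help. Follicular B cells recirculate through follicles and make most T cell-dependent responses. Immature transitional cells, newly arrived from the bone marrow, give rise to both, and the choice of the marginal zone fate requires Notch2 on the B cell and its ligand Dll1 on stromal cells. By surface protein, marginal zone cells are high for CD21 (from Cr2), CD1d and CD9 and low for CD23 (from Fcer2a). Follicular cells are intermediate for CD21 and positive for CD23, and transitional cells carry CD93. These are protein definitions. In bulk RNA, fewer cells of a type and less RNA per cell cannot be told apart.

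On the mouse genome GRCm38.p6, as annotated by RefSeq, Cr2 (Entrez 12902) lies on chromosome 1 from 195136811 to 195176880, Notch2 (18129) on chromosome 3 from 98013538 to 98150367, Dtx1 (14357) on chromosome 5 from 120680203 to 120711867, and S1pr3 (13610) on chromosome 13 from 51408618 to 51422797. Cd1d1 (12479) is on chromosome 3 from 86995834 to 87012358, Cd9 (12527) on chromosome 6 from 125460266 to 125494760, Fcer2a (14128) on chromosome 8 from 3680280 to 3694174, and Cd93 (17064) on chromosome 2 from 148436651 to 148443535. Counts refer to the exons of a whole gene, so the CD21 and CD35 isoforms of Cr2 were not separated. The library kit does not mark strand. RefSeq places a lncRNA gene within or across the span of Cr2, Cd9, Notch2 and S1pr3, which were not analysed here, and the 3' end of Trappc5 (901 to 3413 counts) overlaps that of Fcer2a, so reads from shared bases could not be assigned to a strand.

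Because Notch receptors act through the DNA-binding protein RBPJ, the promoter windows of the members (250 bases before to 50 after a RefSeq start) were searched on both strands for TGGGAA, the core of its motif, and for the longer GTGGGAA, which contains the core. Of 32851 mouse promoter windows of the same length, 25.6% held the core and 6.38% the longer form. Windows of 6 genes were searched, and those of Cd1d1 and Cd93 were not analysed here. The Cr2 and Cd9 windows each held 1 longer match, with its core from position -220 and -211 relative to the start. S1pr3 held the core alone, at position 13, of the 3 Fcer2a windows 1 held 1 core match and another held 2, and Dtx1 and Notch2 held 0. The windows of Cr2 (chr1:195176670-195176969), Cd9 (chr6:125494711-125495010) and Dtx1 (chr5:120711620-120711919), all on the minus strand, are shown 5' to 3' as the genes with the longer match and the Notch target without a match, with the core in capitals.
Cr2: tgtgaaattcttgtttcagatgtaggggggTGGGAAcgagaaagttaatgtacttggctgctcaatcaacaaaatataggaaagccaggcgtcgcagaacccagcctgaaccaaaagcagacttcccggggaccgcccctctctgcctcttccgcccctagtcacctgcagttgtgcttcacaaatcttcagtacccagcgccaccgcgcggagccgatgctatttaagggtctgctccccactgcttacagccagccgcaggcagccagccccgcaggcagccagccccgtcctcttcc
Cd9: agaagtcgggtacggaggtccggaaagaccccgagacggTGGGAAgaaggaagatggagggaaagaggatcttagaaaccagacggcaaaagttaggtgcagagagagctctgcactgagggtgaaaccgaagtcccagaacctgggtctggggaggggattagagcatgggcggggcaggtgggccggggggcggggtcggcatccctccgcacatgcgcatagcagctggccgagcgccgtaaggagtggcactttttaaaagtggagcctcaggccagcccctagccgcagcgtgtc
Dtx1: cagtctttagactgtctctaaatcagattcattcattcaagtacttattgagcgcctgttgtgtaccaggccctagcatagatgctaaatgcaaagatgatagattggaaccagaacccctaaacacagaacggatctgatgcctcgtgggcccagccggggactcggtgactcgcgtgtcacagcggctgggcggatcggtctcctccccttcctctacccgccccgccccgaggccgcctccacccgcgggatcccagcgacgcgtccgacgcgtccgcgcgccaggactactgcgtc
A match of these letters is a description of the window and not a binding site.

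In resting WT cells, Fcer2a was the most abundant of the 8 per length, at 256 ± 42.1 RPKM (SD, n = 3 here and below). Cd9 (92.3 ± 29.8), Notch2 (85.9 ± 14.3) and Dtx1 (79.4 ± 18.6) followed with overlapping library ranges, and then Cr2 (38.6 ± 4.11). Cd93 (8.07 ± 5.17) and Cd1d1 (7.34 ± 1.48) overlapped as well, and S1pr3 was lowest at 2.80 ± 1.02. After anti-IgM in WT cells the order was Fcer2a, Dtx1, Cd9, Cr2, S1pr3, Notch2, Cd93 and Cd1d1, and the ranges of S1pr3 and Notch2, and of Notch2 and Cd93, overlapped. After LPS it was Fcer2a, Cd9, Dtx1, Cr2, Notch2, Cd93, Cd1d1 and S1pr3. There the 4 genes from Cd9 to Notch2 each overlapped the next in range, as did Cd93 and Cd1d1. S1pr3 thus moved from the last place to the fifth with anti-IgM, while Cd1d1 moved to the last.

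**Figure D1:**
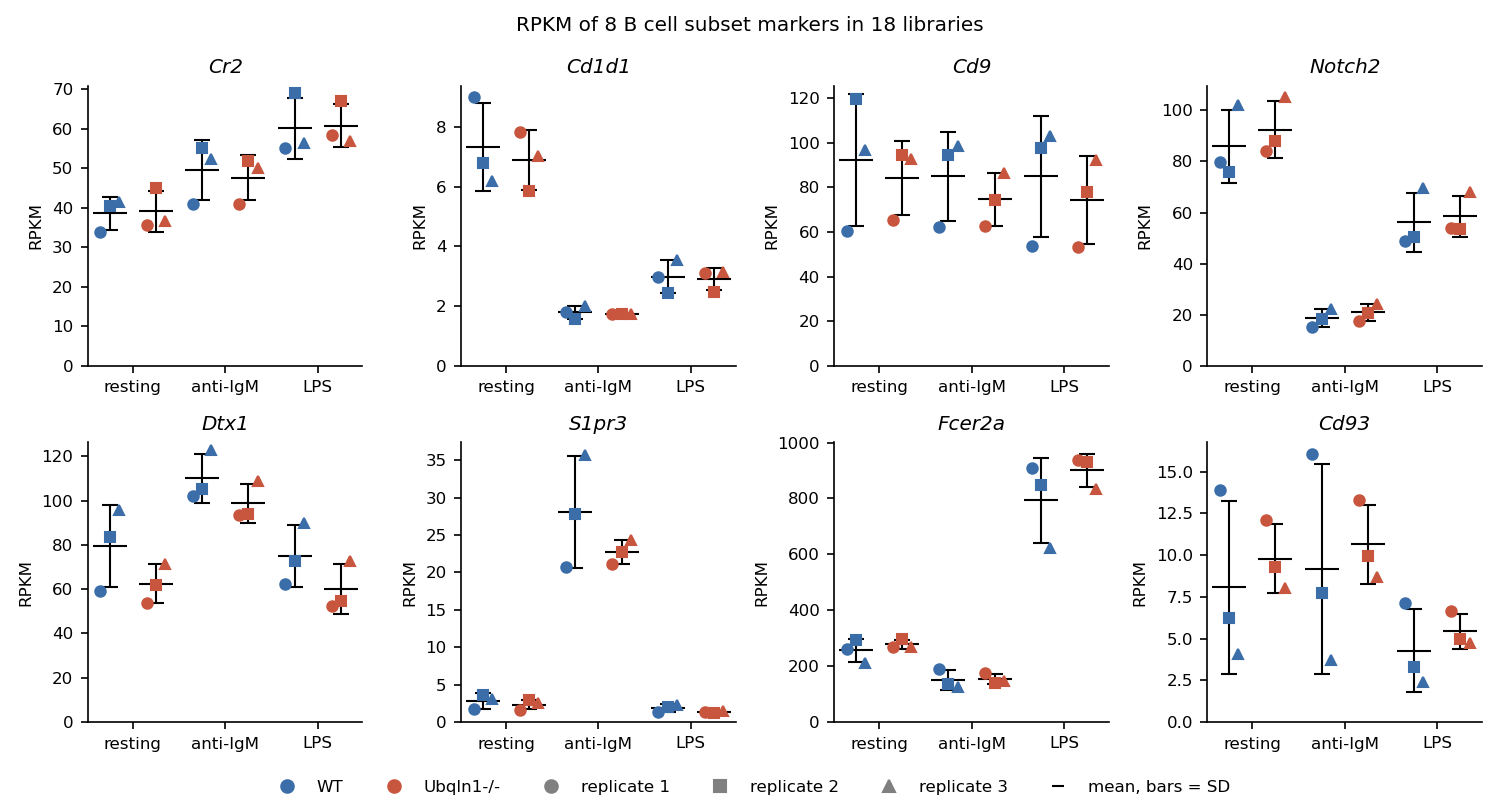
RPKM of each gene (vertical axis, linear, from 0) in each of the 18 libraries, by stimulus and genotype, with symbols for the replicate number and bars for mean ± SD over 3 libraries. S1pr3 rose with anti-IgM and Fcer2a with LPS, Cd1d1 and Notch2 were lower with both stimuli, and the ranges of the WT and Ubqln1-/- libraries overlapped for every gene in every condition.

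Each stimulus moved at least 4 of the 8 genes, in both directions. With anti-IgM, S1pr3, Dtx1 and Cr2 rose in WT cells and Notch2, Cd1d1 and Fcer2a fell (edgeR quasi-likelihood test, Benjamini-Hochberg adjusted p under 0.05). That is 3 of 8 higher and 3 of 8 lower, beside 32.4% and 32.2% of all tested genes, so the share of members that changed in each direction was near that of all genes. In Ubqln1-/- cells 2 of 8 were higher (background 32.9%) and 3 of 8 lower (32.4%). With LPS, Fcer2a and Cr2 rose in both genotypes, 2 of 8 beside 31.2% of all genes in WT and 30.6% in Ubqln1-/- cells, and Cd1d1 and Notch2 fell in both. S1pr3 also fell in Ubqln1-/- cells, which gives 2 of 8 lower in WT (background 30.1%) and 3 of 8 in Ubqln1-/- cells (30.2%). The median log2 fold change of the 8 genes in WT cells was 0.04 with anti-IgM and -0.37 with LPS, beside -0.01 and -0.01 for all tested genes. Both stimuli were compared with the same resting libraries.

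Changes of more than 1 on the log2 scale were fewer. With anti-IgM these were S1pr3, higher in WT and Ubqln1-/- cells (1 of 8, background 9.49% and 9.6%), and Cd1d1 and Notch2, lower in both (2 of 8, background 11.1% and 10.7%). With LPS they were Fcer2a, higher in both (1 of 8, background 7.84% and 7.82%), and Cd1d1, lower in both (1 of 8, background 7.94% and 8.12%).

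**Figure D2:**
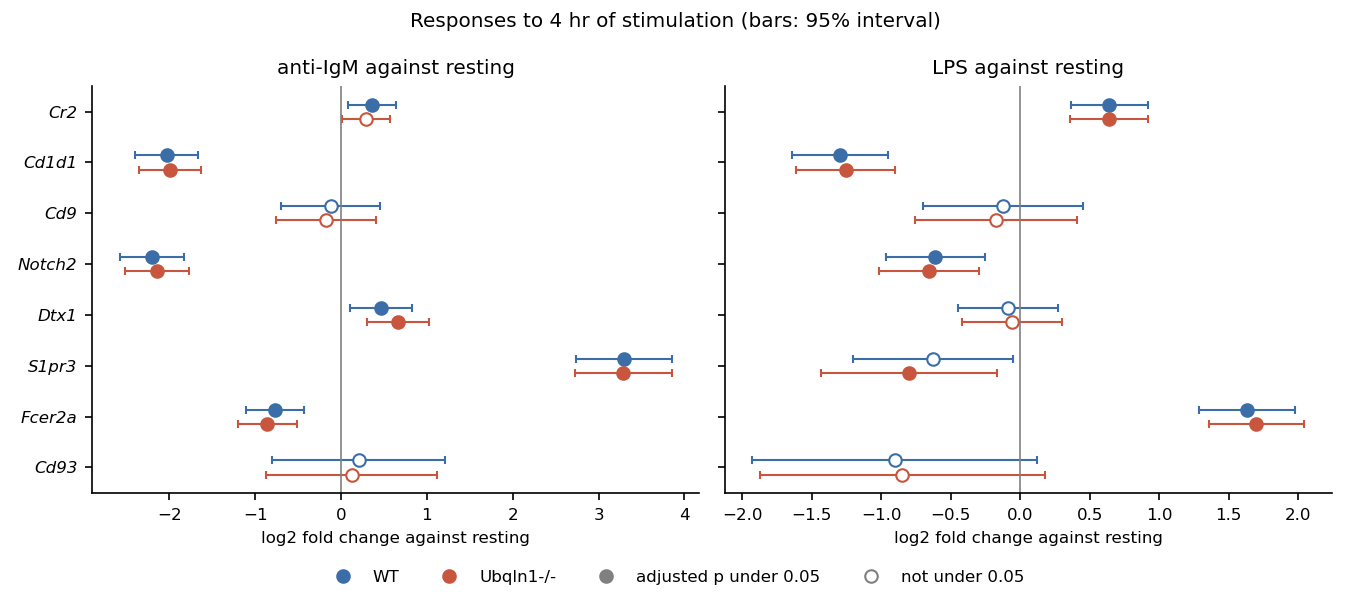
Log2 fold change against resting cells (horizontal axis) of each gene with anti-IgM (left) and LPS (right) in WT (blue) and Ubqln1-/- cells (red), with 95% intervals and filled points for an adjusted p under 0.05. S1pr3 lay at 3.30 in WT and 3.29 in Ubqln1-/- cells with anti-IgM, Notch2 at -2.21 and -2.15, and Fcer2a at 1.63 and 1.70 with LPS.

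Notch2, the receptor that directs the marginal zone fate, had 79.6, 75.8 and 102.3 RPKM in the resting WT libraries, 15.3, 18.4 and 22.2 with anti-IgM and 48.9, 50.4 and 69.6 with LPS. The 3 groups did not overlap. It fell 4.61-fold with anti-IgM (log2 -2.21 ± 0.18 SE, adjusted p = 1.6e-08) and 1.53-fold with LPS (-0.61 ± 0.17, adjusted p = 0.0049). Ubqln1-/- cells had 84.1, 87.9 and 105.1 RPKM at rest, 17.5, 20.7 and 24.3 with anti-IgM and 54.1, 53.6 and 67.9 with LPS. Their changes were -2.15 ± 0.18 and -0.66 ± 0.17, both past the threshold, and here too the groups did not overlap. Among 6 other tested Notch ligands and receptors, 0 rose and 3 fell with anti-IgM in WT cells (median -0.32). The shares of all tested genes were 32.4% higher and 32.2% lower. Notch1 fell with anti-IgM (-0.57 ± 0.11) but rose with LPS (0.44 ± 0.11). Dll4, a ligand at a mean of 0.12 RPKM in resting WT cells, rose with LPS (1.91 ± 0.40).

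Dtx1 encodes Deltex-1, an E3 ubiquitin ligase and a known transcriptional target of Notch in B cells. It had 59.1, 83.4 and 95.6 RPKM in resting WT cells, 102.0, 105.3 and 122.6 with anti-IgM and 62.2, 72.5 and 89.8 with LPS. The anti-IgM libraries all lay above the resting ones, whereas the LPS libraries lay among them. Dtx1 thus rose 1.38-fold with anti-IgM (log2 0.47 ± 0.17, adjusted p = 0.023), while Notch2 was lower in the same libraries. That call was lost without WT anti-IgM replicate 3 (log2 0.39, adjusted p = 0.094) or WT resting replicate 1 (0.29, adjusted p = 0.14). With the replicate number of the labels as a further term in the fit (a block), the adjusted p over all libraries was 1.6e-05. In Ubqln1-/- cells the 53.9, 61.9 and 71.5 RPKM at rest and 93.4, 94.0 and 109.0 with anti-IgM did not overlap, a rise of 0.66 ± 0.17 (adjusted p = 0.0027). With LPS the differences were -0.09 (95% interval -0.45 to 0.27) in WT and -0.06 (-0.42 to 0.30) in Ubqln1-/- cells.

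Of 4 other tested target genes of Notch, 0 rose in WT cells with anti-IgM and 3 fell, among them Nrarp, a feedback inhibitor of Notch (-1.78 ± 0.33), and Hes1, a transcriptional repressor (-1.03 ± 0.21). Both also fell with LPS, by 1.24 and 0.73 on the log2 scale. With LPS 1 of the 4 genes rose and 2 fell in WT cells. The gene that rose was Heyl (1.40 ± 0.30, adjusted p = 0.00080), which had fallen with anti-IgM (-1.29 ± 0.42). In the nuclear complex, 2 of 8 genes rose and 4 fell with anti-IgM in WT cells. Rbpj itself rose 2.11-fold (1.08 ± 0.12) and Maml2, a coactivator that joins it, fell 3.82-fold (-1.93 ± 0.19). Of 17 genes for processing and modulation of Notch, 3 rose and 8 fell with anti-IgM, and 2 rose and 9 fell with LPS. Beside these counts, 32.4% of all tested genes rose and 32.2% fell with anti-IgM in WT cells, and 31.2% and 30.1% with LPS. The metalloprotease Adam10, which cleaves Notch2 and also sheds CD23, rose 2.06-fold with anti-IgM (1.04 ± 0.06) and fell by 0.38 with LPS, and the glycosyltransferase Mfng, which modifies Notch, fell by 0.60 with anti-IgM. In the Deltex family of 5, the main fit called Dtx1 alone higher with anti-IgM in WT cells. It called 3 lower, among them Dtx3l by 0.92. Dtx3 was 0.31 higher (adjusted p = 0.068) and passed with the replicate number as a block (0.0053). The lower call of Dtx4 was lost in 2 of 6 fits that left out a library.

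S1pr3, a receptor for sphingosine 1-phosphate that with S1pr1 holds marginal zone cells in place, had the widest swing of the 8 genes. WT libraries held 1.67, 3.65 and 3.08 RPKM at rest, 20.7, 27.8 and 35.7 with anti-IgM and 1.27, 2.03 and 2.23 with LPS. Every anti-IgM library stood far above every resting and LPS library. The rise was 9.83-fold in WT (log2 3.30 ± 0.26, adjusted p = 1.6e-08) and 9.78-fold in Ubqln1-/- cells (3.29 ± 0.27), where 1.60, 2.87 and 2.49 RPKM became 21.2, 22.7 and 24.3. With LPS, Ubqln1-/- libraries held 1.34, 1.19 and 1.51 RPKM, all below their resting libraries, and S1pr3 fell 1.74-fold (-0.80 ± 0.30, adjusted p = 0.029). That call was lost without Ubqln1-/- LPS replicate 1 (adjusted p = 0.062) or 2 (0.10), without Ubqln1-/- resting replicate 2 (0.13) or 3 (0.073), and with limma voom (0.089). In the blocked fit over all libraries the adjusted p was 0.0016. The WT difference with LPS was -0.63 (95% interval -1.20 to -0.05, adjusted p = 0.055), and its adjusted p was 0.0037 with the replicate number as a block, that is, with a term for the number that libraries of different groups share in their labels. It also passed without WT LPS replicate 3 (0.039) or WT resting replicate 1 (0.00863).

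With anti-IgM, S1pr3 and S1pr4, another receptor of its family, moved in opposite directions. Of 10 other tested sphingosine 1-phosphate receptors, enzymes and transport genes, 2 rose and 5 fell in WT cells with anti-IgM, and 0 rose and 5 fell with LPS. For all tested genes the shares were 32.4% and 32.2% with anti-IgM and 31.2% and 30.1% with LPS. S1pr4 fell 5.47-fold with anti-IgM (-2.45 ± 0.14) and 4.60-fold with LPS. Spns2, the exporter of sphingosine 1-phosphate, fell 18.3-fold with anti-IgM (-4.19 ± 0.31). Gnai2, the G protein subunit that these receptors use, fell 2.28-fold.

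Cr2 encodes CD21 and CD35, receptors for complement fragments that are part of the B cell coreceptor. WT cells had 33.9, 40.3 and 41.5 RPKM at rest, 41.0, 55.2 and 52.4 with anti-IgM and 55.1, 69.1 and 56.3 with LPS. The LPS libraries all lay above the resting ones, and the lowest anti-IgM library lay within the resting range. Cr2 rose 1.56-fold with LPS in WT (log2 0.64 ± 0.13, adjusted p = 0.00047) and 1.56-fold in Ubqln1-/- cells (0.64 ± 0.13), where 35.6, 45.1 and 36.5 RPKM at rest became 58.4, 67.0 and 56.9. With anti-IgM the rise was 0.36 ± 0.13 in WT cells (adjusted p = 0.024), and it no longer passed without WT anti-IgM replicate 2 (adjusted p = 0.10) or 3 (0.068) or WT resting replicate 1 (0.11). In the blocked fit over all libraries the adjusted p was 0.00020. The difference in Ubqln1-/- cells, from the resting values to 41.0, 51.9 and 50.0 RPKM, was 0.29 (95% interval 0.01 to 0.56, adjusted p = 0.065). As a block, the replicate number gave an adjusted p of 0.0013 for it, and the call was also made without Ubqln1-/- anti-IgM replicate 1 (0.022) or Ubqln1-/- resting replicate 2 (0.019).

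Of 8 other coreceptor and complement receptor genes, 1 rose and 5 fell with anti-IgM in WT cells, with Vav2, a signalling adaptor and exchange factor, down 1.54-fold. The gene that rose was Pik3ap1, an adaptor that recruits PI3 kinase, by 3.05-fold. Among all tested genes 32.4% rose and 32.2% fell with anti-IgM in WT cells.

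Fcer2a encodes CD23, the low-affinity IgE receptor that marks follicular cells, and responded in opposite directions to the 2 stimuli. WT cells had 262, 295 and 211 RPKM at rest, 189, 135 and 124.5 with anti-IgM and 911, 847 and 622 with LPS. No libraries of different stimuli overlapped. Fcer2a fell 1.71-fold with anti-IgM (log2 -0.77 ± 0.16, adjusted p = 0.00043) and rose 3.10-fold with LPS (1.63 ± 0.16, adjusted p = 3.2e-07). In Ubqln1-/- cells 267, 296 and 269 RPKM at rest became 174, 139 and 146.0 with anti-IgM (-0.86 ± 0.16) and 939, 930.0 and 833 with LPS (1.70 ± 0.16). Fcer1g, the signalling chain of the high-affinity IgE receptor, was at a mean of 1.58 RPKM in resting WT cells.

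The ratio of Cr2 to Fcer2a RPKM within a library followed from these changes. It was 0.129, 0.137 and 0.197 in resting WT libraries, 0.216, 0.409 and 0.421 with anti-IgM and 0.0605, 0.0816 and 0.0906 with LPS. Ubqln1-/- libraries gave 0.133, 0.152 and 0.136 at rest, 0.236, 0.373 and 0.343 with anti-IgM and 0.0622, 0.0720 and 0.0683 with LPS. Within each genotype the ratio was higher than at rest in every anti-IgM library and lower in every LPS library. Replicate 1 had the lowest ratio of each of the 6 groups.

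Cd1d1 encodes CD1d, which presents lipids to NKT cells. It had 9.01, 6.80 and 6.21 RPKM in resting WT cells, 1.82, 1.56 and 2.00 with anti-IgM and 2.96, 2.44 and 3.55 with LPS, from 70 to 322 counts per library. No 2 stimuli overlapped. The fall was 4.09-fold with anti-IgM (log2 -2.03 ± 0.17, adjusted p = 3.5e-08) and 2.46-fold with LPS (-1.30 ± 0.16, adjusted p = 3.6e-06). Ubqln1-/- cells went from 7.83, 5.85 and 7.02 RPKM to 1.73, 1.73 and 1.73 with anti-IgM (-1.99 ± 0.17) and 3.09, 2.46 and 3.15 with LPS (-1.26 ± 0.17). The near-identical neighbour Cd1d2, annotated as a transcribed pseudogene, held 0 to 4 counts per library, and how reads shared by both were assigned is not given in the sources used here. Of 5 other tested genes of lipid presentation by CD1d, 0 rose and 2 fell with anti-IgM in WT cells, namely Ap3b1, which sorts CD1d to lysosomes (-0.76 ± 0.05), and the protease Ctss (-0.87 ± 0.08). Psap, the precursor of the saposins that load lipids, fell 2.16-fold with LPS and was 0.16 ± 0.10 from resting with anti-IgM. With anti-IgM in WT cells 32.4% of all tested genes rose and 32.2% fell.

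Cd9, a tetraspanin of marginal zone and B1 cells, did not pass the test with either stimulus. WT libraries held 60.6, 119.7 and 96.6 RPKM at rest, 62.2, 94.6 and 98.5 with anti-IgM and 53.8, 97.9 and 103.1 with LPS, with 1067 to 4591 counts in any library of either genotype. The ranges overlapped throughout, and replicate 1 was the lowest of each group. The difference was -0.12 (95% interval -0.70 to 0.46) with anti-IgM and -0.12 (-0.70 to 0.45) with LPS in WT cells, and -0.18 (-0.76 to 0.40) and -0.18 (-0.76 to 0.41) in Ubqln1-/- cells, where the libraries held 65.2, 94.5 and 92.9 RPKM at rest, 62.6, 74.6 and 86.7 with anti-IgM and 53.2, 78.1 and 92.2 with LPS. With the replicate number as a block the intervals were narrower. They were -0.32 to 0.11 and -0.34 to 0.081 in WT, and -0.38 to 0.053 and -0.41 to 0.026 in Ubqln1-/- cells. Of 10 other tetraspanins tested, 3 rose and 5 fell with anti-IgM in WT cells, and 3 rose and 4 fell with LPS. The shares of all tested genes were 32.4% and 32.2% with anti-IgM and 31.2% and 30.1% with LPS. Cd63 rose 5.00-fold with anti-IgM (2.32 ± 0.17), Cd82 rose 3.01-fold with LPS (1.59 ± 0.11), and Tspan32 fell 3.34-fold with anti-IgM and 2.14-fold with LPS.

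Cd93, a C-type lectin-like receptor of transitional B cells, was the most variable of the 8 genes within the WT groups. WT libraries held 13.9, 6.23 and 4.06 RPKM at rest, 16.1, 7.75 and 3.72 with anti-IgM and 7.11, 3.30 and 2.42 with LPS. Within each group the libraries differed several-fold, and the groups overlapped. Ubqln1-/- libraries held 12.1, 9.27 and 8.01 RPKM at rest, 13.3, 9.96 and 8.69 with anti-IgM and 6.65, 4.95 and 4.74 with LPS, the LPS libraries all lying below the others. With LPS the difference was -0.90 in WT (95% interval -1.93 to 0.12, adjusted p = 0.12) and -0.85 in Ubqln1-/- cells (-1.87 to 0.17, adjusted p = 0.14). With the replicate number as a block the adjusted p was 0.0025 and 0.0035. Every LPS library lay below the resting library of its number in both genotypes. The WT difference also passed without WT LPS replicate 1 (log2 -1.48, adjusted p = 0.022) or WT resting replicate 3 (-1.22, 0.047). With anti-IgM it was 0.20 (-0.80 to 1.21) in WT and 0.12 (-0.87 to 1.12) in Ubqln1-/- cells.

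Of 6 other tested genes of transitional and immature cells, 1 rose and 4 fell with anti-IgM in WT cells (median -1.23), and 0 rose and 4 fell with LPS (median -0.97), where 32.2% and 30.1% of all genes were lower. Vpreb3, which associates with the precursor B cell receptor, fell 6.74-fold with anti-IgM and 2.33-fold with LPS. The recombinase gene Rag1 fell 6.49-fold with anti-IgM from a mean of 2.44 RPKM at rest. Cd24a, high on transitional cells, fell 2.09-fold. The B1 list of 6 gave 3 higher and 2 lower with anti-IgM in WT cells, beside 32.4% and 32.2% of all genes. In Ubqln1-/- cells it gave 3 higher and 0 lower, beside 32.9% and 32.4%. The lower WT genes, Bhlhe41 and Spn, lost their calls in 3 and 2 of 6 fits that left out a library. The list was led by Cd5, a negative regulator of B cell receptor signalling, which rose 10.3-fold with anti-IgM in WT cells (3.37 ± 0.26).

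The wider marginal zone and follicular lists, counted without the 8 genes, moved in both directions as well. Of 9 other marginal zone genes, 3 rose and 5 fell with anti-IgM in WT cells (median -0.60), and 4 rose and 4 fell with LPS (median -0.15). Among all tested genes 32.4% rose and 32.2% fell with anti-IgM in WT cells, and 31.2% and 30.1% with LPS. Plxnd1, a semaphorin receptor, rose 8.86-fold with LPS, and Tm6sf1 fell 2.78-fold with anti-IgM and 4.05-fold with LPS. Of 9 other follicular genes, 2 rose and 6 fell with anti-IgM (median -1.12), and 3 rose and 6 fell with LPS (median -0.81). Klf2, a transcription factor of quiescence and trafficking, fell 4.35-fold with anti-IgM, and the integrin gene Itgb7 fell 10.2-fold. Beside these, the B cell identity genes had 1 higher and 7 lower with anti-IgM (median -1.62) and 0 higher and 4 lower with LPS (median -0.42). The macrophage and monocyte markers summed to 22.0 to 45.1 CPM in resting WT cells, 12.6 to 17.7 with anti-IgM and 11.4 to 16.8 with LPS, and the dendritic cell markers to 14.1 to 23.7, 23.3 to 31.9 and 42.2 to 73.0. In the same order the follicular dendritic cell markers summed to 143.4 to 172.9, 60.9 to 75.6 and 79.2 to 105.1 CPM, the endothelial and stromal markers to 221 to 268.8, 30.7 to 49.8 and 129 to 176.5, and the plasma cell markers to 737 to 1006, 2228 to 2498 and 1622 to 1794. The T cell markers summed to 3.00 to 5.43, 5.15 to 6.30 and 1.94 to 3.65. Follicular dendritic cells also carry CD21 and CD23. The part of these lists in the changes of the 8 genes was not tested.

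**Figure D3:**
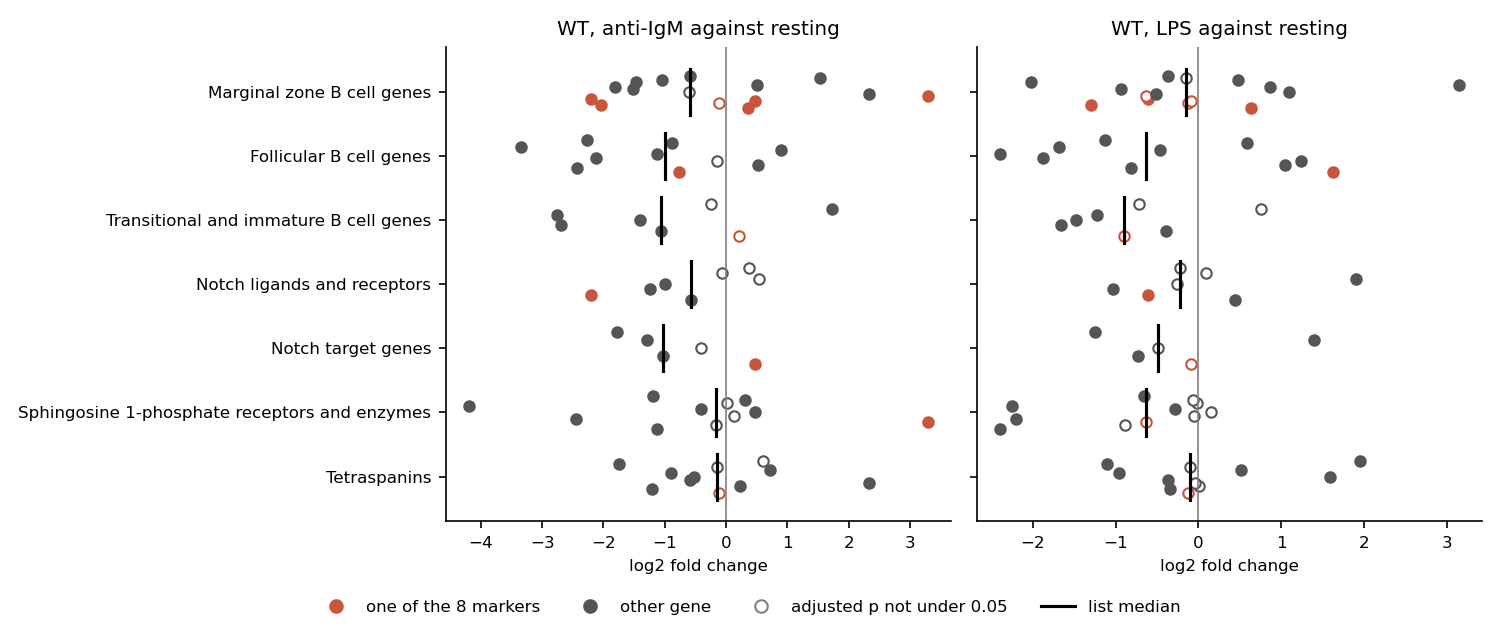
Log2 fold change of every tested gene of 7 lists (horizontal axis) in WT cells with anti-IgM (left) and LPS (right), with the 8 markers in red, open points where the adjusted p was not under 0.05 and a vertical bar at each list's median. Among the sphingosine 1-phosphate genes S1pr3 stood at 3.30 with anti-IgM, against a list median of -0.17. That median includes S1pr3, and the 10 other tested genes had a median of -0.29.

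A direct comparison of LPS with anti-IgM cells showed which genes told the stimuli apart. In WT cells Fcer2a (log2 2.41 ± 0.17), Notch2 (1.59 ± 0.17) and Cd1d1 (0.73 ± 0.18) were higher with LPS, 3 of 8 beside 17.4% of all genes. S1pr3 (-3.92 ± 0.27) and Dtx1 (-0.56 ± 0.17) were lower, 2 of 8 beside 15%. In Ubqln1-/- cells the same 5 genes passed, with 3 of 8 higher (background 16.8%) and 2 of 8 lower (14.5%), at 2.56 for Fcer2a, 1.49 for Notch2, 0.73 for Cd1d1, -4.09 for S1pr3 and -0.72 for Dtx1. The WT call of Dtx1 was lost without WT LPS replicate 1 (adjusted p = 0.090) or 2 (0.051) or WT anti-IgM replicate 3 (0.082). In the blocked fit over all libraries its adjusted p was 6.4e-06. Cr2 was 0.28 higher in WT (adjusted p = 0.12) and 0.35 higher in Ubqln1-/- cells (0.052), and Cd93 was -1.11 (0.092) and -0.97 (0.14). With the replicate number as a block all 4 passed, at adjusted p = 0.0027 and 0.00044 for Cr2 and 0.00091 and 0.0023 for Cd93. Cr2 in Ubqln1-/- cells also passed with DESeq2 (0.039), and Cd93 in WT cells without WT LPS replicate 1 (0.022) or WT anti-IgM replicate 3 (0.022).

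Ubqln1-/- and WT cells were compared within each condition, to ask whether B cells without Ubqln1 differ in these genes. In each condition 0 of 8 members passed the test, beside 0.0565% of all genes at rest, 0.0989% with anti-IgM and 0.0424% with LPS. Without a replicate block the count at an unadjusted p under 0.05 was also 0 of 8 in each condition, and limma voom and DESeq2 called 0 of 8. With the block Dtx1 had an unadjusted p of 0.00036 at rest and 0.00058 with LPS. Notch2 then had 0.015 with anti-IgM, and S1pr3 had 0.043 with anti-IgM and 0.026 with LPS. After adjustment the blocked fit also called 0 of 8. The differences are given with their intervals from the fit without a block, since a p above the threshold does not show that values were the same. For resting, anti-IgM and LPS cells in that order, Cr2 differed by 0.02 (95% interval -0.26 to 0.29), -0.06 (-0.33 to 0.22) and 0.01 (-0.26 to 0.29). Notch2 differed by 0.10 (-0.25 to 0.46), 0.16 (-0.20 to 0.52) and 0.06 (-0.30 to 0.41), and Cd1d1 by -0.08 (-0.42 to 0.25), -0.04 (-0.43 to 0.35) and -0.04 (-0.40 to 0.32).

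Dtx1 was lower in the Ubqln1-/- library of each number in all 3 conditions, by 0.35 (95% interval of the difference -0.71 to 0.01), 0.16 (-0.51 to 0.20) and 0.32 (-0.68 to 0.04) on the log2 scale for resting, anti-IgM and LPS cells, and each interval includes 0. The unadjusted p was 0.058, 0.37 and 0.079. With the replicate number as a block the intervals were -0.50 to -0.18, -0.31 to 0.0045 and -0.48 to -0.16. Those at rest and with LPS exclude 0, at an adjusted p of 0.068 and 0.061, above the threshold. S1pr3 had -0.30 (-0.88 to 0.29), -0.30 (-0.79 to 0.18) and -0.47 (-1.09 to 0.16). Its blocked intervals were -0.66 to 0.079, -0.53 to -0.0096 and -0.88 to -0.062, at an adjusted p of 0.72, 0.42 and 0.47. Fcer2a had 0.12 (-0.22 to 0.45), 0.03 (-0.31 to 0.37) and 0.18 (-0.15 to 0.52). For Cd9 the differences were -0.14 (-0.72 to 0.44), -0.19 (-0.77 to 0.39) and -0.19 (-0.77 to 0.39). Cd93 had the widest intervals, at 0.29 (-0.72 to 1.30), 0.21 (-0.78 to 1.20) and 0.35 (-0.69 to 1.38), and its Ubqln1-/- library was lower than the WT one for replicate 1 and higher for replicates 2 and 3 in each condition.

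**Figure D4:**
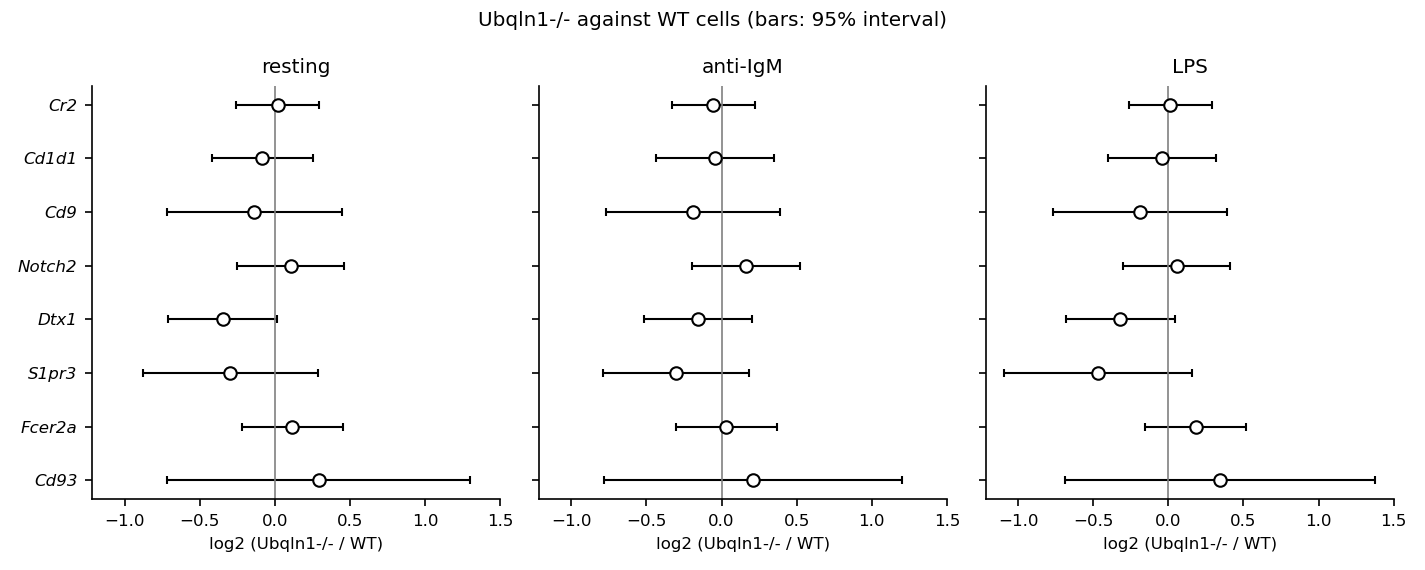
Log2 ratio of Ubqln1-/- to WT cells (horizontal axis) for each gene in resting, anti-IgM and LPS cells, with 95% intervals. Every interval, from the fit without a replicate block, includes 0, and the widest are those of Cd93.

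The response to a stimulus was also compared between genotypes. For anti-IgM 0 of 8 members differed (background 0%), and for LPS 0 of 8 (background 0%). At an unadjusted p under 0.05 there were 0 of 8 in either interaction, and 140 and 220 of all genes.

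Within groups, the 8 genes varied with the replicate number in the labels, shared by libraries of different stimulus and genotype. Cd93 was highest in replicate 1 and lowest in replicate 3 in 6 of 6 groups, with mean deviations of 0.65 and -0.54 from its group mean on the log2 CPM scale. Cd9 went the other way, lowest in replicate 1 in 6 of 6 groups (deviations of -0.60 to -0.24). Dtx1 was lowest in replicate 1 and highest in replicate 3 in 6 of 6 groups, S1pr3 was lowest in replicate 1 in 5 of 6, and Notch2 was highest in replicate 3 in 6 of 6. Cr2 was lowest in replicate 1 in 5 of 6 groups. Fcer2a, the follicular marker, was highest in replicate 1 in 4 of 6 groups and lowest in replicate 3 in 4 of 6. Thus Cd9, Dtx1, S1pr3, Cr2 and Notch2 were on average below their group means in replicate 1, and Cd93, Fcer2a and Cd1d1 above. The macrophage and monocyte markers summed to 15.2 to 45.4 CPM in the libraries of replicate 1, 11.4 to 31.9 in those of replicate 2 and 12.0 to 24.3 in those of replicate 3. Total counts were 15368941 to 31909127 in replicate 1, 21808529 to 41072854 in replicate 2 and 18923791 to 28590363 in replicate 3. The part of either was not tested, and the labels do not say what a number marks.

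**Figure D5:**
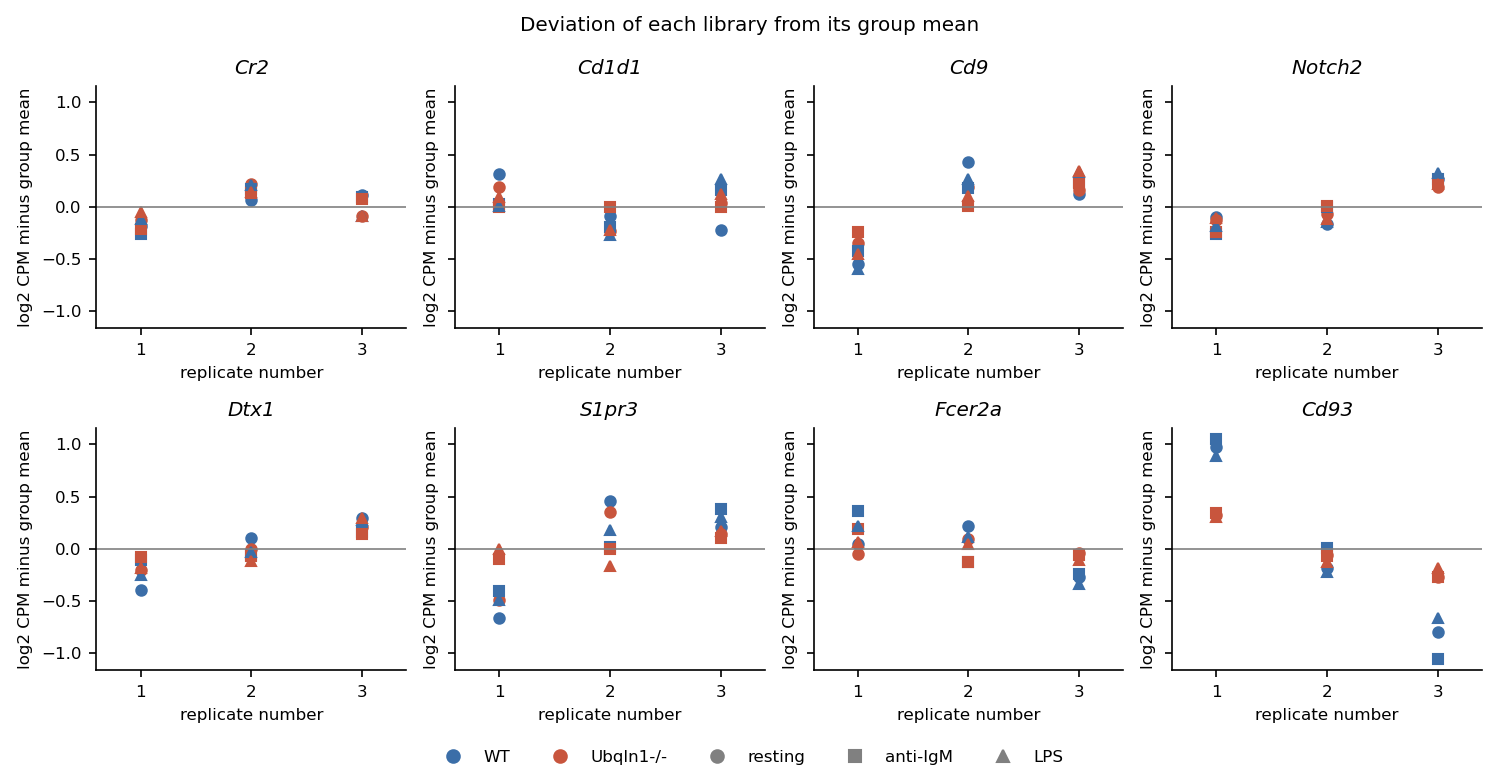
Deviation of each library from its group mean in log2 CPM (vertical axis) by replicate number, with colour for genotype and symbol for stimulus. Cd93 lay above 0 in replicate 1 and below 0 in replicate 3 in all 6 groups, and Cd9 below 0 in replicate 1 in all 6.

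The genes most alike in profile were found by Pearson correlation of log2 CPM over the 18 libraries, which share genotypes, stimuli and replicate numbers, so the values describe profiles only. S1pr3 was closest to Myof (r = 0.993), Plau (0.990) and Irs2 (0.989). Notch2 was closest to Plekha2 (0.991), the integrin gene Itga4 (0.990) and Glul (0.989), and Cd1d1 to Galnt10, Madd and Cat (0.993, 0.992 and 0.992). Fcer2a was closest to Slc39a1 (0.984), the cytokine subunit gene Ebi3 (0.984) and Rapgef1 (0.981). Cr2 was closest to Rhot1 (0.969), Slc7a3 (0.965) and Ankrd33b (0.954). Dtx1 followed an unnamed gene, Entrez 100503461 (0.995), then 5033430I15Rik (0.943) and F2r (0.930). The RefSeq annotation used here does not hold that unnamed gene, so its position was not known. Whether it shares reads with Dtx1 was not tested. The heat shock genes Hspa1b (0.928) and Hspa1a (0.922) were among those most like Cd9, and Cd93 was closest to Zfpm1 (0.939), Dstn (0.918) and Fgf13 (0.917).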

How the data were processed

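Splenic B cell RNA was sequenced as single-end reads of 50 bases from a poly(A) library kit. Per the labels and Methods, GSNAP alignments to GRCm38 were made by the authors, who compared groups with limma in R 3.2.2. The deposited files hold exonic read counts per Entrez gene, with no normalization, beside the gene width and RPKM. The deposited RPKM equalled, for 100% of nonzero values in every library (within 1e-06 of the value), the count over the width and a single total per library, which is larger than the sum of counts, so RPKM was recomputed here from the count, the width and the TMM-scaled library size. The counting program and its handling of reads shared by genes are not given in the sources used here. Depth ranged from 15368941 to 41072854 counts, with a median of 23257531, which limits the precision most for Cd1d1 (70 counts in its lowest library).

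Groups came from the labels. Replicate 1 carries no number in its labels and was numbered by elimination. Replicate libraries differed by more than sampling noise (chi-square per degree of freedom 8.06 or more), so none was counted as a copy. edgeR 4.0.16 (TMM factors 0.958 to 1.04, its expression filter, 14161 genes, quasi-likelihood test) was fitted over all 18 libraries with a term per group. The biological coefficient of variation was 10.1%. P-values were adjusted by Benjamini-Hochberg over all tested genes, with a threshold of 0.05. On simulated counts of Ubqln1-/- against WT cells with anti-IgM (13985 genes), it found 53.7% of changes of 0.5 on the log2 scale, 89.2% of 1 and 100% of 2, with 6 false calls. Log2 CPM used a prior count of 2. Same-numbered libraries of a genotype deviated together in 18 of 18 pairs (correlation of deviations from group means 0.23 to 0.52). Across genotypes within a condition the 9 same-numbered pairs correlated at 0.083 to 0.39. Differently numbered pairs of all groups correlated at -0.47 to 0.080. The numbers were thus taken to link libraries across stimuli and genotypes, and the block is shared by both genotypes. The main fit has no block, so its intervals include the spread between numbers. Blocked values are given where they change a call and in some other comparisons.

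Alternatives were limma 3.58.1 with voom, DESeq2 1.42.0 (both in R 4.3.3), RLE normalization, other filters, a replicate block, only the groups compared, a fold threshold and leaving out each library. Names and positions came from RefSeq, which named 89.1% of 28096 genes, and promoter sequences from RefSeq on GRCm38.p6. Beyond the 8 genes, those named in a list are among the 4 with the smallest p in either WT stimulation, and the 3 most alike genes were named per member, except for items that are not reported here. The 8 genes and the lists were chosen with earlier results of these data known. Python 3.11.15 with numpy 2.4.6, pandas 2.3.3, scipy 1.17.1 and matplotlib 3.10.9 was used. Reads, proteins and flow cytometry were not analysed here.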

Additional observations from a re-analysis of the deposited data

How the results depend on the processing

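The directions and calls of Notch2, Cd1d1 and Fcer2a against resting cells, and of S1pr3 with anti-IgM, held in both genotypes under limma voom, DESeq2, RLE normalization, the other filters, the replicate block, a fit of only the groups compared and the removal of any library. The calls that did not hold, of Cr2, Dtx1, S1pr3 with LPS and Cd93, are mostly given beside their values, and the others follow. Cr2 with anti-IgM in Ubqln1-/- cells passed with the loose filter (adjusted p = 0.0405) and with only the groups compared (0.0372), and S1pr3 with LPS in WT cells with the strict filter (0.0496). With only the groups compared, in Ubqln1-/- cells, Cd93 passed for LPS against resting (0.00152) and against anti-IgM (0.00219), and Cr2 for LPS against anti-IgM (0.0224). The cause was not tested. Depth limits Cd1d1 and S1pr3, at rest and with LPS, most.

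With a log2 fold change over 1 as well, members called fell to 3 with anti-IgM and 2 with LPS against resting, in each genotype. In WT cells 9.49% of all genes were higher and 11.1% lower at that fold with anti-IgM, and 7.84% and 7.94% with LPS. For LPS against anti-IgM the share of all genes at that fold was not computed, so no count is given. With the replicate block they were 6 of 8 for anti-IgM and 6 for LPS against resting and 7 for LPS against anti-IgM in each genotype, while the block called 69.9%, 68% and 42.8% of all genes for WT cells and 70.7%, 66.9% and 41.8% for those lacking Ubqln1. For the genotype comparisons, the replicate block called 0 of 8 members (Dtx1 adjusted p = 0.068 at rest, 0.061 with LPS). It called 49, 94 and 125 of all genes at rest, with anti-IgM and with LPS, against 8, 14 and 6 without it. DESeq2 called 32, 47 and 51 and limma voom 6, 18 and 5 of all genes there, and both called 0 of 8 members. Leaving out a library gave 4 to 6 members called for anti-IgM against resting in WT cells, and 0 in every genotype comparison and interaction. The fit over all libraries called 32.4% of all genes higher and 32.2% lower for anti-IgM in WT cells. Shares for the fits without a library are not given.

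The Cr2 to Fcer2a ratio without gene widths had medians of 0.361, 1.08 and 0.215 in resting, anti-IgM and LPS WT cells and 0.358, 0.902 and 0.180 in Ubqln1-/- cells, with the same order. RPKM as deposited was 83.9% to 89.0% of the values used here, and without TMM factors 96.8% to 103%.

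Small differences that did not pass the test changed sign. For Cd9, LPS against anti-IgM in Ubqln1-/- cells was -0.029 with the replicate block, -0.00855 with DESeq2, -0.0033 with the loose filter, -0.00572 with RLE, -0.0077 with the strict filter, -0.0093 with only the groups compared and -0.017 with limma voom, and in WT cells it was 0.0080 with the loose filter, which also gave -0.000950 for Cr2 between genotypes at rest. Leaving out a library moved Cd9 from -0.18 to 0.19 and from -0.19 to 0.24 for LPS against anti-IgM in Ubqln1-/- and WT cells, from -0.35 to 0.023 for LPS in Ubqln1-/- cells, from -0.35 to 0.12 for LPS and from -0.35 to 0.12 for anti-IgM in WT cells, and from -0.38 to 0.10 at rest and -0.43 to 4.6e-06 with LPS between genotypes. Cd93 ranged from -0.46 to 0.83 for anti-IgM in WT and -0.059 to 0.31 in Ubqln1-/- cells, and between genotypes from -0.037 to 0.90 at rest and -0.16 to 0.88 with anti-IgM. Dtx1 with LPS ranged from -0.26 to 0.070 in WT and -0.22 to 0.051 in Ubqln1-/- cells. Between genotypes at rest, with anti-IgM and with LPS, Cr2 ranged from -0.10 to 0.072, -0.18 to 0.038 and -0.062 to 0.13, and Cd1d1 from -0.20 to 0.065, -0.14 to 0.036 and -0.17 to 0.10. Fcer2a ranged from -0.018 to 0.23 at rest and -0.088 to 0.24 with anti-IgM, and Notch2 from -0.063 to 0.24 with LPS. In WT cells Cd63 with LPS ranged from -0.18 to 0.091, and Fcer1g from -0.28 to 0.14 with LPS and -0.40 to 0.17 with anti-IgM.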
